A study of Mus musculus with 18 samples.

Results

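Intermediate progenitors were compared with radial glia in mouse neocortex that had been cultured with EPIREGULIN. The comparison rests on 6 of the 18 libraries of the study, 3 of treated intermediate progenitors (Epi IP) and 3 of treated radial glia (Epi RG). They were chosen by the population and treatment in their names, and differences were also taken between libraries with the same replicate number (same-number pairs). The tests used no such pairing, and fits with a replicate block were run as alternatives. All groups came from wild-type C57BL/6J embryos at E14.5. Brain hemispheres rotated in culture (HERO) for 24 h, with 50 ng/mL human recombinant EPIREGULIN in the treated groups and with no addition in the control groups. The ligand is thus the human protein acting on mouse tissue. The same step in control cultures (Ctl IP against Ctl RG) has 3 libraries a group and shares no library with the treated step. Treated neurons (Epi N, 3 libraries) are used below only to place the treated intermediate progenitors. Replicates are called biological in the labels, and no source used here tells how the populations were isolated.

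Radial glia are the stem cells of the embryonic cortex. Their cell bodies line the ventricle, and Notch signalling keeps them undifferentiated by way of the repressors Hes1 and Hes5, which the Notch intracellular domain and its DNA-binding partner RBPJ switch on. Intermediate progenitors descend from them, switch on the T-box factor Eomes (Tbr2), leave the ventricular surface, and divide to give glutamatergic neurons. EPIREGULIN belongs to the EGF family and binds the receptors EGFR and ERBB4, which act through the ERK cascade.

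Hes5, a Notch effector, fell steeply between the populations, while Eomes, the gene that defines intermediate progenitors, rose. Their promoters are printed here because of these opposite directions. Both are RefSeq sequences on GRCm38.p6 that run from 250 bases before to 50 bases after the gene start, 5′ to 3′ along the gene. Capitals mark the letters GTGGGAA, which RBPJ binds, and their reverse complement TTCCCAC.

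Hes5, plus strand, chr4:154960673-154960972: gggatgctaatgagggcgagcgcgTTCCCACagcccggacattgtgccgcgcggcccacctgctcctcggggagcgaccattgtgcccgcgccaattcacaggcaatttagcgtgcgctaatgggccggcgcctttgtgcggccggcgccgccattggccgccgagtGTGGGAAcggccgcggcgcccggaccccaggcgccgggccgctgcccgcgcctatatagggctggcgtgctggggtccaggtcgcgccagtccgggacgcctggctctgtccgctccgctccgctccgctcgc

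Eomes, plus strand, chr9:118477939-118478238: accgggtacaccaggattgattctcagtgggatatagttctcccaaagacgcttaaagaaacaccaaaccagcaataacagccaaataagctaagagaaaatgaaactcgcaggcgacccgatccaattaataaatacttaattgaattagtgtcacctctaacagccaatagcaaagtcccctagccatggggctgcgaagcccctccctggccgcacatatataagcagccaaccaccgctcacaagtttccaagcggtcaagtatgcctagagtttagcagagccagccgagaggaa

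The Hes5 promoter held the RBPJ letters 2 times, on opposite strands and 143 bases apart. The Eomes window held none. Of 32851 promoters of that length in the table, 2097 (6.38%) held at least 1 copy and 84 (0.256%) held 2 or more. Among the 8 promoters found for Hes5, Eomes, Neurod1, Neurod4, Dll1 and Dll3, only the Hes5 promoter held them. The E-box letters CAGATG, a sequence that proneural bHLH factors bind, were searched on both strands too and stood in 17.2% of all promoters and in 0 of these 8. Matches describe letters in a window and say nothing on binding.

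Total counts were 21.9 to 31.0 M in Epi RG and 24.1 to 30.1 M in Epi IP, within the 15.5 to 34.2 M of all libraries. Over 11711 genes with a mean log2 CPM above 3, log2 levels correlated at 0.981 to 0.991 among the Epi RG libraries and at 0.979 to 0.989 among the Epi IP libraries. Between Epi RG and Epi IP the correlation was 0.552 to 0.587. Between Epi IP and Epi N it was 0.923 to 0.953. These correlations run across genes, which are not independent replicates. Mitochondrially encoded transcripts took 2.68 to 4.05% of the counts in Epi RG and 5.41 to 8.09% in Epi IP, so the groups did not overlap in this share, and its part in the results below was not tested.

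Eomes set the treated intermediate progenitors apart from both neighbours. Its level was 22.4, 16.1 and 17.2 CPM (counts scaled to the size of the library) in the 3 Epi RG libraries, 145, 141 and 81.9 CPM in Epi IP and 6.74, 7.25 and 13.1 CPM in Epi N. All 3 Epi IP libraries lay above all of the others, and the third was the lowest of them. Eomes (GRCm39, ENSMUSG00000032446, chromosome 9, bases 118307280 to 118315200) rose 6.58-fold against Epi RG, a log2 fold change of 2.72 ± 0.28 (SE, n = 3 a group; edgeR adjusted p = 2.88e-08). In bulk libraries, fewer or more cells of a type and less or more RNA per cell cannot be told apart. By their whole profile the Epi IP libraries lay nearer to Epi N than to Epi RG, and markers of neurons were high in them (below), so they are called intermediate progenitors here only as the labels call them.

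Of 29355 genes tested, 6797 (23.2%) were higher and 5743 (19.6%) lower in Epi IP than in Epi RG at an edgeR quasi-likelihood adjusted p under 0.05, 42.7% in all. The change was beyond 4-fold for 2072 genes (7.06%) that were higher and 1345 (4.58%) that were lower. In 7882 genes (26.9%) all 3 Epi IP libraries lay above all 3 Epi RG libraries, and in 7468 (25.4%) they lay below. By same-number pairs, 9730 genes (33.1%) were higher in all 3 and 10238 (34.9%) were lower in all 3. Among 18012 protein-coding genes, 28.0% were called higher and 22.7% lower.

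The step in treated cultures and the step in control cultures had closely similar sizes among well-counted genes, and more scattered ones among rarely counted genes. In control cultures 12122 genes (41.3%) were called, 6666 (22.7%) higher and 5456 (18.6%) lower. Of these, 10812 were also called in treated cultures, which is 86.2% of the treated and 89.2% of the control calls, and 0 were called in opposite directions. The 1728 genes called only in the treated step had the same sign in control cultures in 1651 cases, with a median absolute log2 change of 0.99 in treated and 0.46 in control cultures. The 1310 genes called only in the control step had the same sign in treated cultures in 1251 cases. Of 3417 genes called beyond 4-fold in treated cultures, 3238 were called the same way in control cultures.

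Across the 11711 genes with a mean log2 CPM above 3, the log2 fold changes of the steps correlated at r = 0.995 and rho = 0.988. The slope of treated on control was 1.01 and the median difference -0.01. The middle 90% of these genes differed by -0.26 to 0.23 log2 units between the steps, and 11705 of 11711 by less than 1. Over all 29355 genes r was 0.924 and rho 0.847, and among the 10150 genes with a mean log2 CPM under 0 r was 0.668. The steps share one fit, one filter and one gene annotation, and these correlations are descriptions with no p. Computed from single pairs of libraries, the step correlated at 0.981 to 0.986 between treated pairs, at 0.963 to 0.983 between control pairs, and at 0.958 to 0.989 between a treated and a control pair.

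**Figure D1:**
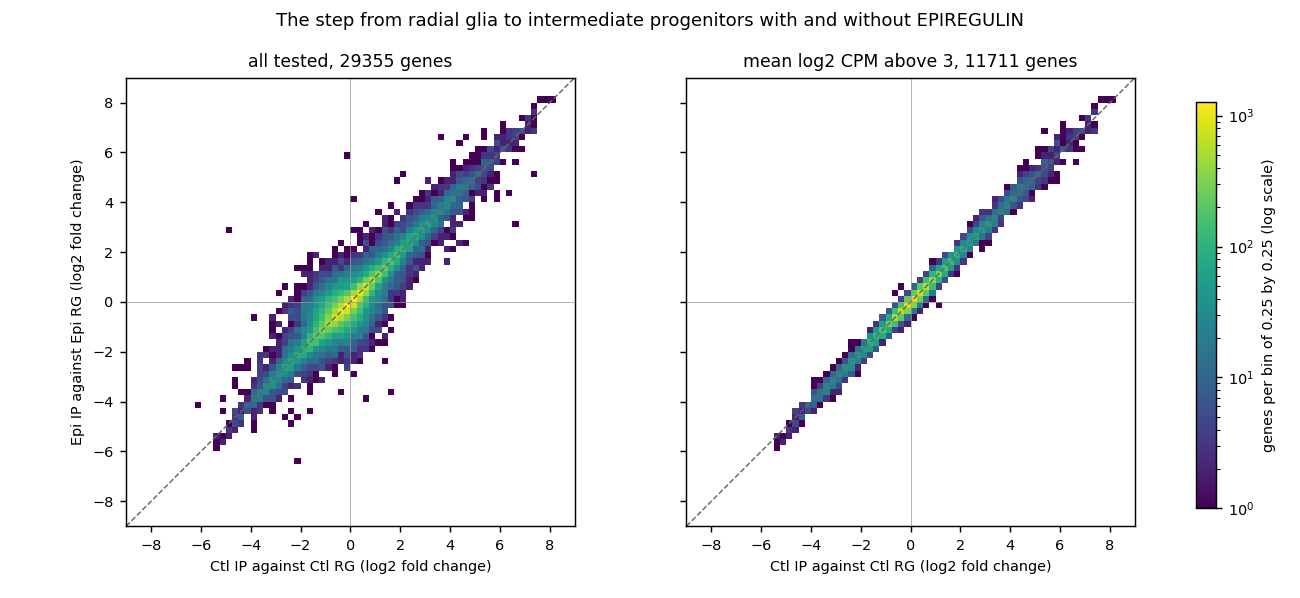
Log2 fold change of intermediate progenitors against radial glia in control cultures (x axis) and in EPIREGULIN-treated cultures (y axis), as the number of genes per bin of 0.25 by 0.25 on a log colour scale. On the left are all 29355 genes tested (r = 0.924), on the right the 11711 with a mean log2 CPM above 3 (r = 0.995), which lie along the dashed line of equal change.

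The difference of the steps was tested directly as the interaction of population and treatment. It passed for 0 of 29355 genes (0.0%) at an edgeR adjusted p under 0.05, and the smallest adjusted p was 1.0. An unadjusted p under 0.05 was reached by 442 genes (1.51%) in edgeR and by 433 in DESeq2, which also called 0. With the replicate block over all libraries 737 genes reached it, and with a block within treatment 748, again with 0 called. Without the first Ctl IP library 881 reached it and without the third 747. Evenly spread p-values would put a share of 0.05 of the genes under that threshold, and each of these counts was a smaller share. In the fit without the block, the 95% interval of the difference for a gene with a mean log2 CPM above 3 reached a median of 0.45 log2 units to either side, and for one with a mean under 0 it reached 1.68.

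Several of the 12 largest rises were genes of young glutamatergic neurons. Neurod6, a neuronal bHLH factor, was at 2.94, 1.85 and 3.08 CPM in Epi RG and 649.5, 765 and 943 CPM in Epi IP. Its groups did not overlap, and the fold change was 296 (log2 8.21 ± 0.27, edgeR adjusted p = 2.38e-16; 8.14 ± 0.27 in control cultures). The microtubule destabiliser Stmn2 went from 5.08, 2.28 and 2.63 CPM to 944, 986 and 986 CPM, which is nearly the same level in every Epi IP library. The deep-layer T-box factor Tbr1 went from 1.78, 1.69 and 0.835 CPM to 345, 382 and 414 CPM and rose by 8.04 ± 0.23 log2 units. Mir124a-1hg, the host transcript of a neuronal microRNA that represses non-neuronal genes, rose by 7.85 ± 0.24. The other 8 of the 12 largest rises were Arpp21, a phosphoprotein of neurons (7.73), the adhesion molecule Clmp (7.59), Actl6b (7.52), the corepressor Runx1t1 (7.49), the glycine receptor subunit Glra2 (7.35), the splicing factor Rbfox1 (7.35), the bHLH factor Neurod2 (7.31) and the kinase subunit Camk2b (7.24), all as log2 fold changes. In control cultures these 12 rose by between 6.91 and 8.14 log2 units.

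Of the 12 steepest falls, the first was Tnc (tenascin C, a glycoprotein of the progenitor matrix). It was at 274, 444 and 333 CPM in Epi RG and 6.08, 5.05 and 6.51 CPM in Epi IP, a 59.4-fold fall with no overlap (log2 -5.89 ± 0.21; -5.31 ± 0.21 in control cultures). Hes1 fell from 91.5, 99.2 and 150.0 CPM to 2.43, 1.24 and 2.67 CPM (log2 -5.73 ± 0.32), and Hes5 from 188, 199 and 270.2 CPM to 5.72, 4.03 and 5.18 CPM (log2 -5.45 ± 0.23). The third Epi RG library was the highest for both repressors, and even the lowest Epi RG library stood far above every Epi IP library. Others of the 12, again as log2 fold changes, were the actin-binding Tagln2 (-5.62), the endothelin receptor Ednrb (-5.57), the zinc finger factor Sall3 (-5.39), the sphingosine phosphate receptor S1pr1 (-5.36), the astroglial membrane protein Mlc1 (-5.31), the matrix protein and YAP target Ccn1 (-5.30), podoplanin Pdpn (-5.25) and the cell cycle regulator Rgcc (-5.08).

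Radial glia genes fell almost without exception. Of 24 markers tested, 23 fell and 0 rose, against 19.6% lower and 23.2% higher among all genes, and their median log2 fold change was -3.82 against -0.07 over all genes tested. The all-gene shares are the reference for every list below. The lists were chosen with earlier results of these data known, so such comparisons are descriptions. The stem cell factor Sox2 went from 299.5, 325 and 283 CPM to 19.9, 19 and 16.5 CPM, and Sox9, which maintains neural stem cells, from 607, 679 and 650.4 CPM to 29.4, 22.5 and 30.2 CPM. Vim, the intermediate filament of the radial fibre, went from 1582, 1643 and 1370.0 CPM to 143, 122 and 112 CPM. Each of these fell with no overlap between the groups. Pax6, the homeobox factor of dorsal radial glia, fell from 337, 282 and 269.5 CPM to 53.4, 45.1 and 36.6 CPM (log2 -2.72 ± 0.19). Fabp7, a lipid carrier of radial glia (log2 -4.89), the filament gene Nes (-3.56) and the glutamate transporter Slc1a3 (-3.31) fell too. Glutamine synthetase (Glul) was the marker that did not pass, with 35.3, 26.9 and 26.7 CPM in Epi RG and 30.6, 24.0 and 22.9 CPM in Epi IP.

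**Figure D2:**
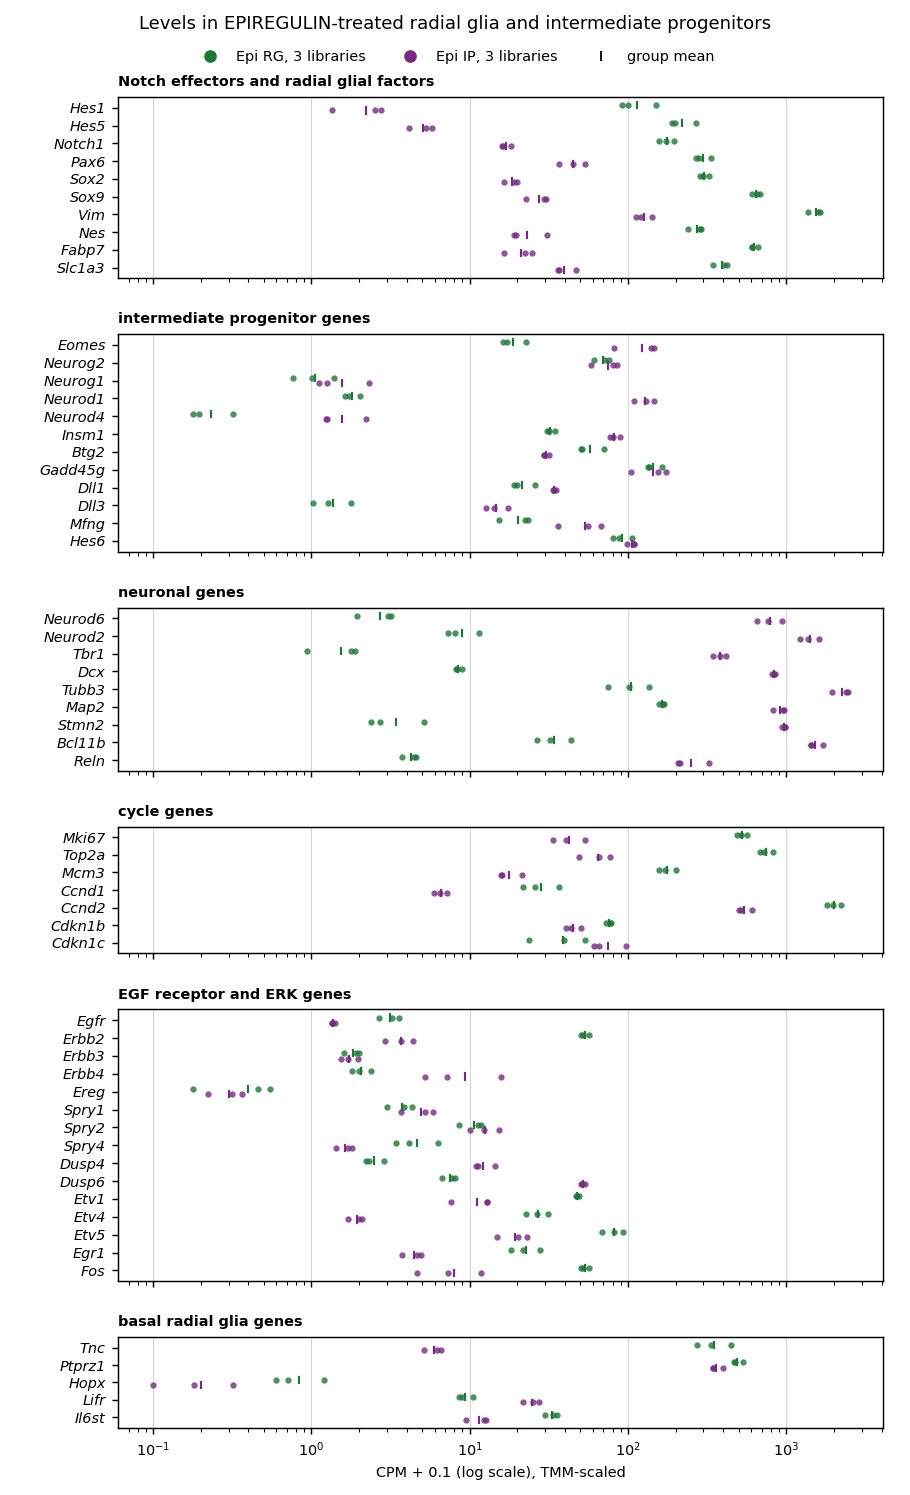
CPM plus 0.1 on a log scale (x axis) for panel genes (rows) in each Epi RG (green) and Epi IP (purple) library, with a bar at each group mean. Radial glial and cycle genes lie to the left in Epi IP (Hes1 2.43, 1.24 and 2.67 against 91.5, 99.2 and 150.0 CPM), neuronal genes lie far to the right (Neurod6 649.5, 765 and 943 against 2.94, 1.85 and 3.08 CPM), and Neurog2, Gadd45g and Hes6 overlap.

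Within the Notch pathway, receptors and effectors fell while most ligands rose. Notch1 went from 157, 175 and 195 CPM to 18, 16.2 and 16.0 CPM (log2 -3.39 ± 0.15), Notch2 fell by 3.88 and Notch3 fell by 4.03. Lfng, a glycosyltransferase that tunes Notch receptors, fell by 4.68 ± 0.30. The ligand genes Dll1 (0.67 ± 0.14) and Dll3 (3.54 ± 0.25) and the second glycosyltransferase Mfng (1.39 ± 0.25) rose. Of 20 Notch receptors, ligands and modifiers, 8 rose and 8 fell; Rbpj itself was among the 4 not called. The median of that list was 0.05, and it turned to -0.05 with upper-quartile scaling. Of 12 Hes, Hey and Id repressors, 8 fell and 1 rose. The one that rose was Id2, an inhibitor of bHLH factors, from 35.8, 38.3 and 31.5 CPM to 484, 448 and 518 CPM, while its relative Id4 fell from 613, 630.2 and 560.1 CPM to 38.5, 40.0 and 48.1 CPM.

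Genes of the intermediate progenitor list moved unequally. Of 20 tested, 14 rose, 3 fell and 3 were not called, with a median of 2.12. Insm1, a zinc finger factor that drives basal progenitor formation, rose from 31.4, 34.5 and 30.7 CPM to 77.0, 80.3 and 88.7 CPM and stood higher still in Epi N, at 226, 294 and 346 CPM. Neurod1 rose from 1.92, 1.53 and 1.64 CPM to 109, 146 and 129.8 CPM, and its Epi N levels were 217, 268 and 261 CPM. Neurod4, a bHLH factor of neurogenesis, was low everywhere, at 0.22, 0.0786 and 0.0963 CPM in Epi RG, 1.16, 2.13 and 1.13 CPM in Epi IP and 0.176, 0.133 and 0.37 CPM in Epi N. It rose by 3.37 ± 0.54 log2 units, and its Epi IP libraries lay above all of the others.

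Several early genes of the neurogenic program were not called between the treated populations. Neurog2, the proneural factor that starts cortical neurogenesis, was at 75.4, 61.2 and 71.0 CPM in Epi RG and 80.6, 84.9 and 58.7 CPM in Epi IP. The groups overlapped and the log2 fold change was 0.11 ± 0.16 (edgeR adjusted p = 0.626). Gadd45g, a stress and differentiation gene of basal progenitors, had a change of 0.004 ± 0.24, Neurog1 of 0.61 ± 0.35 and the Hes1 antagonist Hes6 of 0.22 ± 0.13, none of them called. Hes6 was called with the replicate block on the 6 treated libraries (log2 0.21). The antiproliferative gene Btg2 went the other way, from 50.2, 51.4 and 70.4 CPM to 29.3, 29.4 and 31.7 CPM, and fell by 0.93 ± 0.15. The chromatin remodeller Chd7 (-1.07 ± 0.15) and the rhomboid-like Rhbdl3 (-1.32 ± 0.17) also fell. In control cultures 15 of the list rose and 3 fell.

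Neuronal genes rose as a body. All 26 neuron markers were called higher, with a median of 5.40. Doublecortin (Dcx), which binds microtubules in migrating neurons, was at 8.79, 8.13 and 8.25 CPM and then 818, 842 and 845 CPM; in Epi N it was at 789.6, 910.3 and 793 CPM. Bcl11b, a factor of subcortical projection neurons, reached 1717, 1433 and 1439 CPM in Epi IP and 1114, 975 and 927 CPM in Epi N. It was thus higher in every Epi IP library than in any Epi N library. Of 24 cortical layer factors, 20 rose and 4 fell, and those that fell were Cux1 (-1.53), Pou3f2 (-0.89), Pou3f3 (-0.97) and Foxp2 (-0.46), all but Foxp2 upper-layer factors. Of 17 bHLH factors, 7 rose and 4 fell, and Bhlhe22 went from 1.37, 0.982 and 1.90 CPM to 125, 114 and 119 CPM.

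Markers of 2 other neuron classes moved with the population. All 8 Cajal-Retzius markers rose, with a median of 3.88. Reln, the extracellular guide of cortical layering that these cells secrete, went from 4.45, 3.61 and 4.37 CPM in Epi RG to 207, 212 and 326 CPM in Epi IP, and was at 34.1, 26.4 and 26.1 CPM in Epi N. Trp73 went from 0.797, 0.668 and 0.514 CPM to 19.9, 18.8 and 30.1 CPM. Of 16 interneuron markers, 9 rose and 2 fell: the peptide gene Sst went from 1.59, 3.18 and 2.89 CPM to 62.7, 72.1 and 96.0 CPM and Npy from 0.522, 0.432 and 0.707 CPM to 9.59, 12.1 and 21.0 CPM, while Sp8 (-3.73), which cortical progenitors also express, was among those that fell. The part of these cells in the neuronal rises was not tested.

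Cycle genes were lower in treated intermediate progenitors throughout. All 50 S phase and replication genes fell (median -2.08), as did all 64 mitosis genes (median -3.31). Mki67, the antigen of cycling cells, was at 566, 487 and 515 CPM in Epi RG, 53.2, 40.3 and 33.4 CPM in Epi IP and 12.2, 10.7 and 8.77 CPM in Epi N. Epi IP therefore lay between the other populations with no overlap on either side. Top2a, the mitotic topoisomerase, showed the same order, with 827, 678 and 728, then 77.5, 65.7 and 49.2, then 17.7, 14.4 and 13.8 CPM. The replication helicase gene Mcm3 fell from 157, 170.1 and 201 CPM to 15.9, 21.4 and 15.6 CPM, and the spindle gene Aspm fell by 3.87 log2 units. Ccnd2, the cyclin that is inherited through the basal process, fell from 1971, 1819 and 2207 CPM to 504, 518 and 609.5 CPM, and Ccnd1 fell by 2.12 ± 0.19 log2 units.

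Cyclin-dependent kinase inhibitors did not share a direction. Cdkn1c (p57) rose by 0.94 ± 0.23 while Cdkn1b (p27) fell from 78.1, 77.0 and 73.1 CPM to 50.6, 43.3 and 40.3 CPM and Cdkn2c (p18) fell by 3.54 ± 0.26. The G1 kinase Cdk6 fell by 3.26 and Cdk2 fell by 2.96. Of 21 primary microcephaly genes, 17 fell and 2 rose, the latter being Phc1 (0.92) and Zfp335 (0.82); Cenpj and Ankle2 were not called, and Ankle2 was with the replicate block (log2 -0.29). Of 30 histone genes, 27 fell, among them H3f3b, and 1 rose, namely H3f3a (0.76 ± 0.14). Histone genes include near-identical copies, so the share of each is uncertain.

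Genes of the ERBB receptor family did not share a direction between the treated populations. Erbb2, the coreceptor that binds no ligand of its own, was at 50.7, 52.2 and 56.6 CPM in Epi RG and 4.31, 2.84 and 3.60 CPM in Epi IP, a 14.8-fold fall (log2 -3.88 ± 0.26, edgeR adjusted p = 1.99e-11). Egfr was low in both, with 3.13, 3.46 and 2.57 CPM and then 1.30, 1.24 and 1.25 CPM, and fell by 1.26 ± 0.27. Erbb4 rose from 2.28, 1.89 and 1.70 CPM to 7.06, 5.10 and 15.8 CPM (log2 2.24 ± 0.56), with the third Epi IP library well above the others and a value of 1.64 without it. Erbb3 did not pass (-0.09 ± 0.31). The mouse gene of the ligand, Ereg, was barely detected, with 0.357, 0.0786 and 0.45 CPM in Epi RG and 0.217, 0.266 and 0.121 CPM in Epi IP, and the groups overlapped. The differences of these steps from control cultures were -0.07 (95% interval -0.78 to 0.64) for Erbb2, -0.21 (95% interval -0.98 to 0.57) for Egfr and 0.18 (95% interval -1.42 to 1.78) for Erbb4, in log2 units.

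Targets of ERK signalling split into opposite groups. The phosphatases Dusp6, from 6.62, 7.97 and 7.67 CPM to 50.6, 50.8 and 53.5 CPM, and Dusp4, from 2.12, 2.79 and 2.22 CPM to 14.3, 10.9 and 11.2 CPM, both of which switch ERK off, rose with no overlap. Dusp6 was at 12.7, 11.2 and 12.6 CPM in Epi N, so its level was highest in Epi IP among the treated populations. The ETS factors Etv4 (-3.88 ± 0.25), Etv5 (-2.07 ± 0.21) and Etv1 (-2.11 ± 0.27) fell, as did the feedback inhibitor Spry4 (-1.55 ± 0.27), while Spry1 (0.41 ± 0.23) and Spry2 (0.25 ± 0.19) were not called. Of 20 ERK feedback genes and ETS targets, 7 rose and 9 fell. Among 28 immediate early genes 9 rose and 13 fell: Fos (-2.75) and Egr1 (-2.37) fell, while the nuclear receptor Nr4a3 went from 2.99, 2.59 and 3.24 CPM to 107, 118 and 109 CPM and Myc from 5.55, 5.97 and 6.91 CPM to 38.3, 33.1 and 31.5 CPM. Adaptors and turnover factors of the receptors also changed, with Grb2 (1.62), Cblb (1.85) and Lrig2 (1.19) higher and Lrig1 (-1.83) and Shc1 (-1.02) lower. Of 10 EGF family ligands tested, 4 rose, among them Hbegf (1.58 ± 0.20) and Nrg3 (2.15 ± 0.23), and Nrg1 fell by 0.58 ± 0.12.

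**Figure D3:**
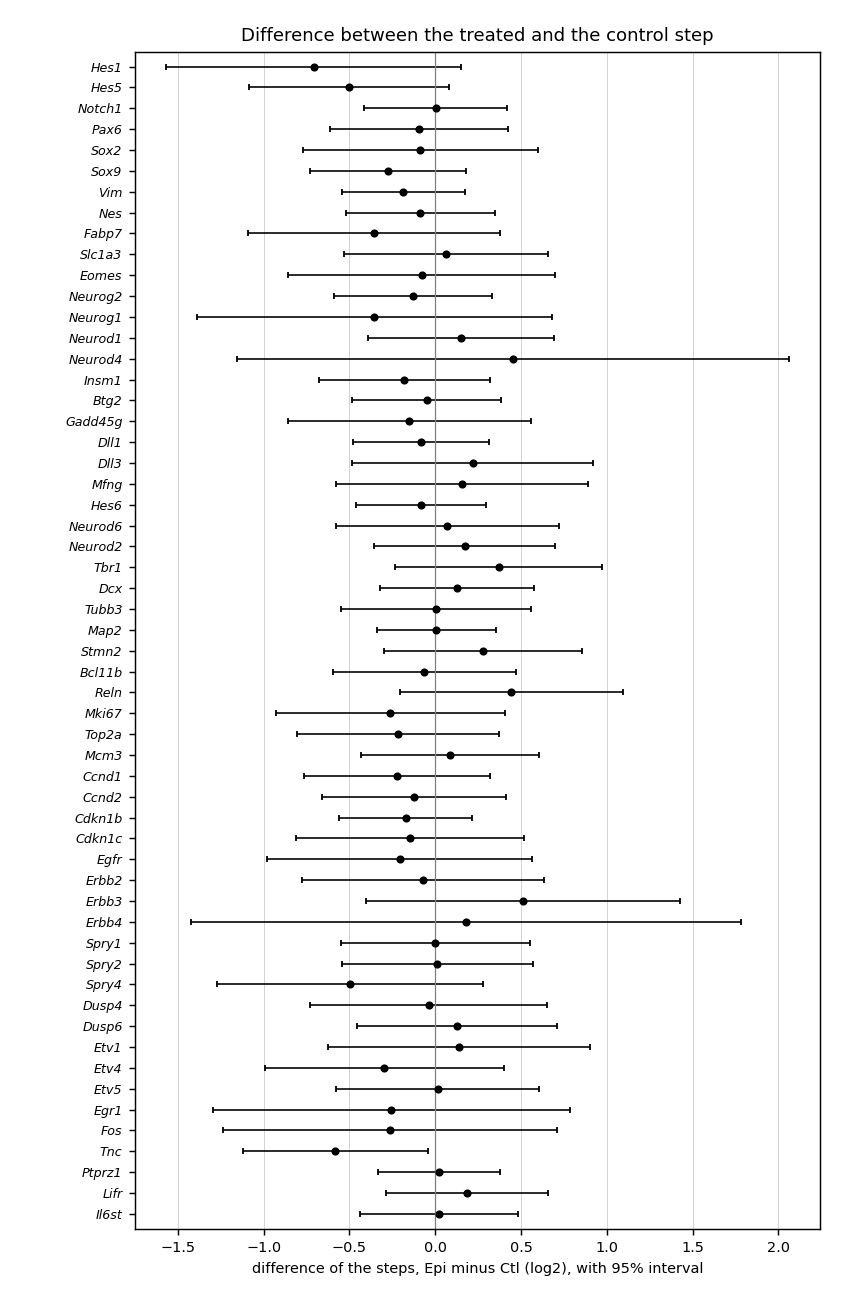
Difference between the treated and the control step (Epi minus Ctl, log2 units, x axis) for panel genes (rows), each with its 95% interval. Every interval but that of Tnc spans 0, and the interval of Erbb4, 0.18 (95% interval -1.42 to 1.78), is among the widest.

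Genes that mark basal radial glia, the progenitors that keep a basal process and are abundant in primates, fell for the most part. Of 12 tested, 9 fell and 1 rose. Lifr, the leukemia inhibitory factor receptor, was the one that rose, from 8.87, 10.4 and 8.48 CPM to 24.9, 27.3 and 21.5 CPM, while its partner Il6st fell from 29.9, 35.5 and 33.6 CPM to 12.6, 12.2 and 9.38 CPM. Ptprz1, a receptor phosphatase, fell from 469, 529 and 473 CPM to 343, 345 and 398 CPM. Hopx, a marker of basal radial glia in primates, was at 0.494, 1.1 and 0.61 CPM in Epi RG and 0, 0.222 and 0.0809 CPM in Epi IP. The fatty acid ligase Acsbg1 fell by 4.43 and the integrin subunit Itgb5 fell by 3.06.

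Matrix and integrin genes fell more often than they rose, with 23 of 43 lower and 8 higher (median -0.75). The fibulin gene Fbln7 fell from 57.5, 78.3 and 82.2 CPM to 2.97, 1.68 and 2.06 CPM and the integrin subunit Itgb8 fell by 3.28 ± 0.17. Those that rose included the proteoglycans Vcan, from 33.7, 32.4 and 39.0 CPM to 218, 223 and 194 CPM, and Ncan (0.94 ± 0.21), and the laminin chain Lamb1 (2.78 ± 0.15). Hippo pathway genes fell in 13 of 22 cases: the coactivators Yap1, from 72.1, 73.9 and 90.7 CPM to 6.30, 7.58 and 6.43 CPM, and Wwtr1 (TAZ; -4.03 ± 0.24) and their target Ccn1, from 147, 139 and 177 CPM to 4.85, 2.66 and 4.12 CPM, all fell, and the upstream Nf2 rose by 1.02 ± 0.12.

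Patterning and morphogen genes of the ventricular zone were largely lower in treated intermediate progenitors. Of 16 dorsal forebrain patterning factors, 13 fell and 2 rose, among the latter Nr2f2 (1.2 ± 0.26). Of 13 Hedgehog genes, 9 fell, among them the coreceptors Gas1 (-4.74) and Cdon (-2.81), the transducer Smo (-2.25) and the factor Gli3 (-3.77), while Gpr161, an inhibitor of the pathway, rose by 1.46 ± 0.16. Of 28 Wnt and Frizzled genes, 15 fell and 4 rose. The secreted antagonist Sfrp1 fell from 320.4, 296 and 294 CPM to 58.4, 45.8 and 49.1 CPM and the receptor Fzd8 fell by 3.08 ± 0.22. The ligand Wnt7b rose from 16.4, 22.4 and 24.5 CPM to 203, 139.5 and 171 CPM and the agonist Rspo3 from 4.53, 5.26 and 8.51 CPM to 106, 87.8 and 93.3 CPM.

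Genes of delamination, by which a cell leaves the ventricular surface, took opposite courses. Of 11 tested, 7 rose and 4 fell. Lzts1, which weakens apical junctions, rose from 6.34, 6.48 and 5.46 CPM to 142, 141 and 124 CPM, the Snail-family repressor Scrt2 rose by 4.58 ± 0.27 and Zeb2 by 2.19 ± 0.13. Akna, which anchors microtubules at the centrosome of delaminating cells, fell from 28.2, 37.4 and 47.1 CPM to 14.48, 16.8 and 16.6 CPM, and Zeb1 fell by 1.93 ± 0.16 and the junction protein Plekha7 fell by 2.51 ± 0.14. Of 21 apical junction and polarity genes, 10 fell and 6 rose. The apical protein prominin (Prom1) fell by 2.26 ± 0.14, and neuronal alpha-catenin (Ctnna2) rose from 9.998, 7.82 and 9.35 CPM to 143, 150.4 and 168 CPM.

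Within the cytoskeleton, related genes differed in direction. Where levels are given by library in the paragraphs that follow, the groups did not overlap except for Actl6a. Of 16 tubulin genes, 8 rose and 5 fell: Tuba1a, the alpha-tubulin of young neurons, went from 576, 639 and 746 CPM to 3991, 4351 and 4624 CPM, while Tuba1b went from 869, 851 and 935 CPM to 233, 214 and 209.5 CPM. These near-identical paralogs can share reads, so the split between them is uncertain. Of 26 microtubule-associated proteins and stathmins 23 rose and 0 fell; Tau (Mapt) rose from 62.1, 62.9 and 51.5 CPM to 1959, 1894 and 1864 CPM, and Map4, Dclk2 and Tppp3 were not called. Of 14 neuronal kinesin genes, 12 rose, Kif21a fell (-0.49 ± 0.11) and Kif5b was not called (0.04 ± 0.13), against a rise of 4.89 ± 0.15 for Kif5a. Mitotic kinesins such as Kif11 and Kif23 belong to the mitosis list, in which all 64 genes fell. Among 12 intermediate filament genes, alpha-internexin (Ina) rose from 5.63, 6.95 and 8.41 CPM to 889, 886 and 892 CPM, with 4 higher and 6 lower in all.

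Several chromatin and RNA regulators with a progenitor and a neuronal form differed in opposite directions. In the BAF remodelling complex, Actl6b, the neuronal subunit, rose from 1.78, 0.629 and 1.70 CPM to 279.5, 253 and 248 CPM. Its progenitor counterpart Actl6a was at 30.1, 35.6 and 59.3 CPM and 23.4, 25.1 and 37.3 CPM, which did not pass (-0.54 ± 0.24; edgeR adjusted p = 0.0703) but was called with the replicate block at -0.52. For the Ss18 pair the progenitor form fell (-0.83 ± 0.13) and the neuronal Ss18l1 rose (2.09 ± 0.12). Rest, the repressor of neuronal genes outside neurons, fell from 115, 106 and 111 CPM to 33.5, 32.6 and 34.2 CPM, and its phosphatase cofactors Ctdsp1 (-2.57) and Ctdsp2 (-1.66) fell too. Myt1l, which represses non-neuronal genes in neurons, rose from 4.29, 4.01 and 3.76 CPM to 576, 492 and 509.6 CPM, and Prdm16, a factor of radial glia, fell by 3.18 ± 0.16.

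Splicing regulators followed the same pattern, with 20 of 33 neural splicing and RNA-binding genes higher and 8 lower. Ptbp1, which blocks neuronal exons, fell by 1.37 ± 0.23 and its neuronal relative Ptbp2 rose by 0.81 ± 0.12. Srrm4, the activator of neuronal microexons, rose from 13.4, 10.7 and 12.6 CPM to 419, 392 and 345 CPM, and Qk, an RNA-binding protein of glia and progenitors, fell from 479, 559.5 and 586 CPM to 80.5, 82.6 and 96.9 CPM. Of 13 Sox factors, 8 fell and 4 rose. The risers were Sox11, from 801, 698 and 706 CPM to 5397, 4944 and 5373 CPM, Sox4 (2.62 ± 0.16), Sox5 (3.73 ± 0.14) and Sox12 (0.94 ± 0.10). Polycomb genes did not move one way, with 11 of 26 higher and 8 lower; the methyltransferase Ezh2 fell by 0.38 ± 0.11 and Pcgf5 fell by 3.49 ± 0.18, and Jarid2 rose by 1.12 ± 0.11. The maintenance methylation cofactor Uhrf1 fell by 2.97 ± 0.20 and the de novo methyltransferase Dnmt3a fell by 1.2 ± 0.12.

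Genes of axon guidance, adhesion and the synapse were mostly higher in treated intermediate progenitors. Of 29 semaphorins, plexins and neuropilins 18 rose; Nrp1, a semaphorin receptor, went from 9.06, 9.31 and 10.3 CPM to 143, 139 and 182 CPM and the ligand Sema5b fell by 2.87 ± 0.19. The Slit receptor Robo1 rose from 11.6, 11.8 and 11.7 CPM to 167, 186 and 198 CPM and the netrin coreceptor Dscam by 5.38 ± 0.18, within a list in which 13 of 20 rose. Of 22 Eph receptors and ephrins 12 rose, such as Epha3 (3.78 ± 0.16), and 7 fell, such as Efnb1 (-1.84 ± 0.13), a ligand of ventricular progenitors. T-cadherin (Cdh13) went from 7.88, 6.95 and 8.99 CPM to 985, 956 and 1021 CPM, while 8 of 24 cadherins fell. The adhesion molecule L1cam rose from 4.89, 5.11 and 6.29 CPM to 527, 532 and 544 CPM and Chl1 by 6.81 ± 0.16.

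Of 32 synaptic vesicle and release genes 27 rose (median 3.76). Snap25, part of the fusion machinery, went from 2.99, 2.99 and 3.44 CPM to 296, 372 and 402 CPM. Of 35 voltage-gated channels 32 rose, and the potassium channel Kcnd3 was called lower (-0.41 ± 0.13), which it no longer was without the first (-0.33) or the third Epi IP library (-0.38). Of 36 transmitter receptors 26 rose, among them the glycine receptor subunit Glra2 named above.

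**Figure D4:**
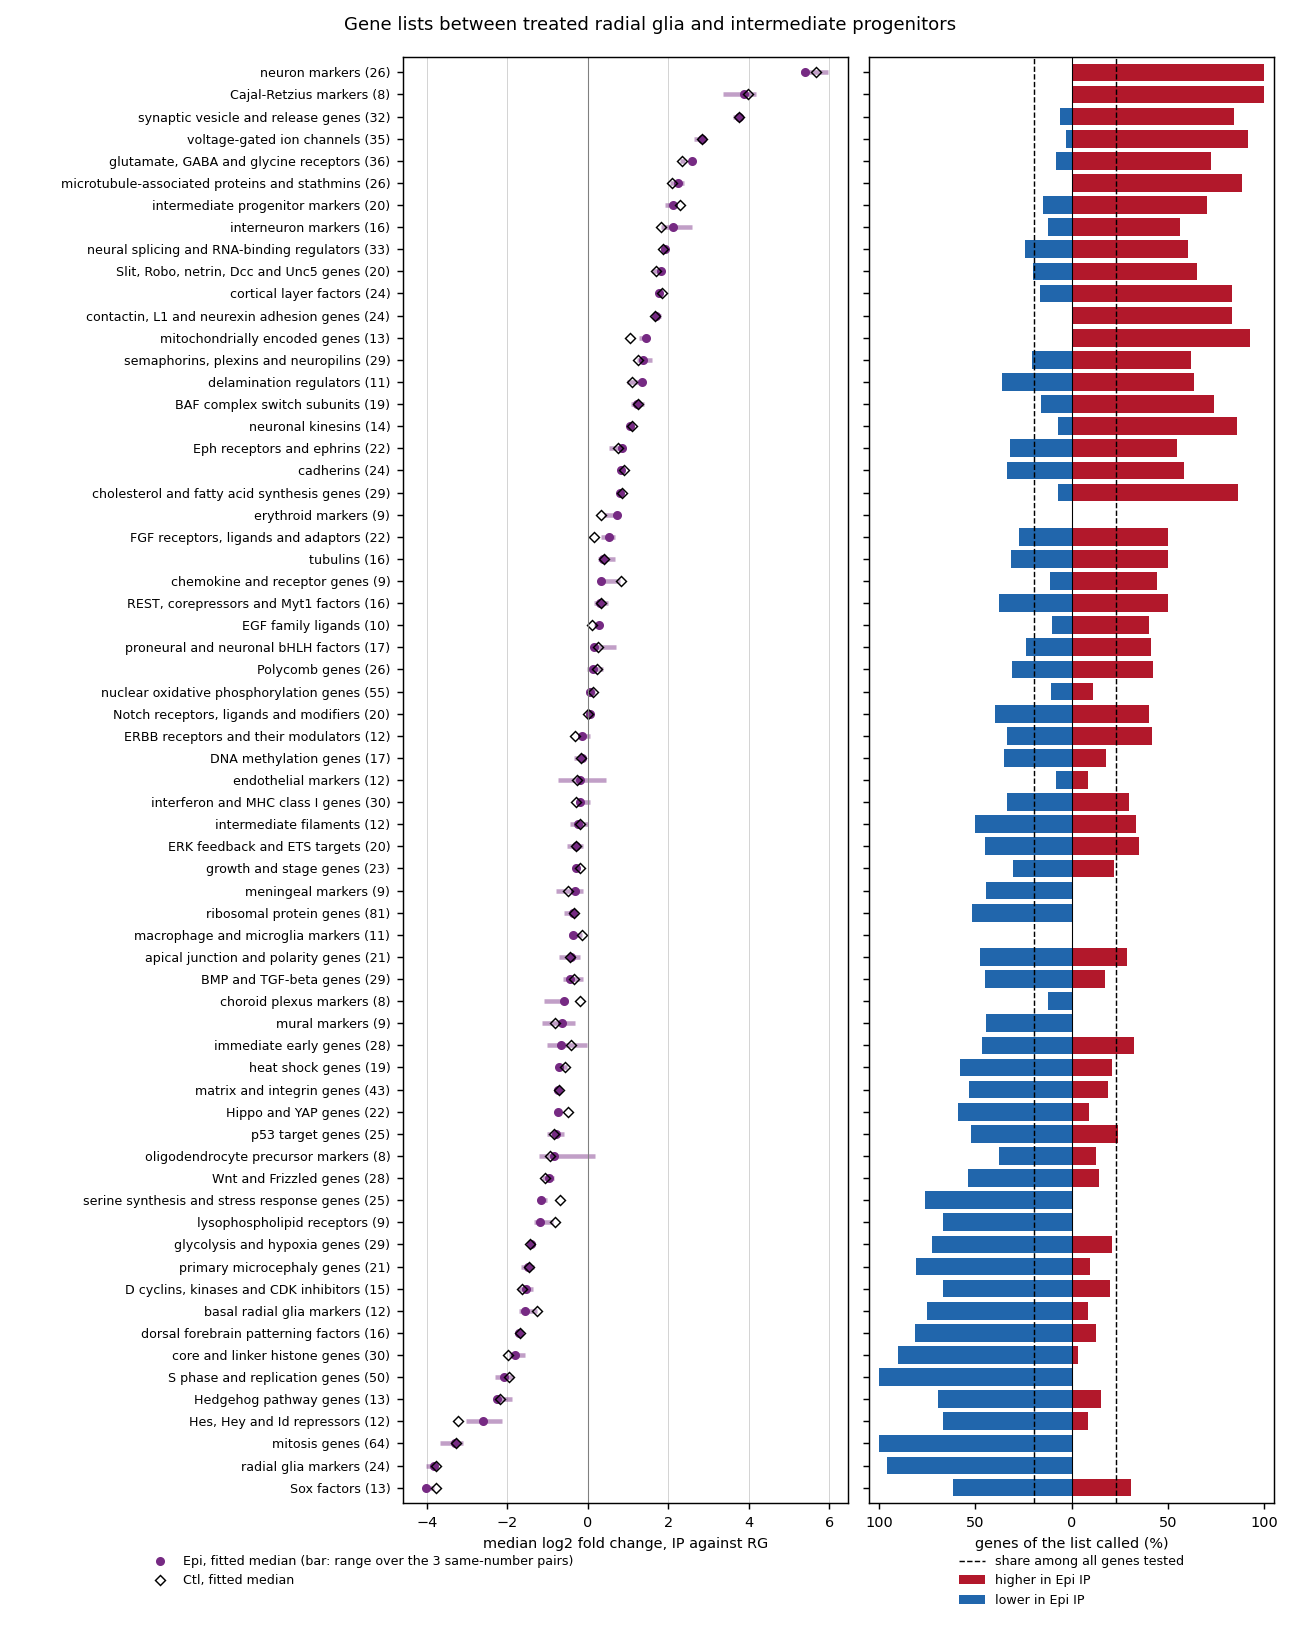
Left: median log2 fold change of intermediate progenitors against radial glia for each of the 65 gene lists (number of genes tested in brackets), in treated cultures (purple, with the range of the 3 same-number pairs, computed on log2 CPM) and control cultures (open diamonds). Right: percent of each list called higher (red) or lower (blue) in Epi IP, with dashed lines at the shares among all genes tested, 23.2% and 19.6%.

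Energy metabolism differed in its parts. Of 29 glycolysis and hypoxia genes 21 fell and 6 rose. Aldoc, the aldolase of radial glia and astrocytes, fell from 326, 338 and 332 CPM to 15.1, 10.1 and 13.8 CPM and the glucose transporter Slc2a1 from 139.5, 124 and 182 CPM to 32.0, 24.4 and 36.1 CPM. The neuronal enolase Eno2 rose by 1.44 ± 0.13 and the phosphofructokinase Pfkp by 1.77 ± 0.18. Of 13 mitochondrially encoded genes 12 rose, all but mt-Nd6 (median 1.45), against 8 in control cultures (median 1.04), and 0 of them had an unadjusted p under 0.05 for the difference of the steps. Of 55 nuclear oxidative phosphorylation genes 6 rose and 6 fell, which is below the share among all genes. With the replicate block these counts were 10 and 9, and with upper-quartile scaling 3 and 9, so which direction led depended on the setting.

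Biosynthesis genes moved in blocks. Of 29 cholesterol and fatty acid synthesis genes 25 rose and 2 fell. Fdft1, which commits carbon to sterols, went from 57.6, 50.7 and 71.0 CPM to 196, 189 and 259.8 CPM. Those that fell were the desaturase Scd2 (-0.54 ± 0.15) and the regulator Srebf1 (-1.21 ± 0.13). Both serve fatty acid synthesis, but Acaca, Fasn, Elovl6 and Scd1, which serve it too, rose. Of 25 serine synthesis and stress response genes 19 fell and 0 rose; Phgdh, the first enzyme of serine synthesis, went from 285, 312 and 363 CPM to 46.2, 52.0 and 61.1 CPM and the stress pseudokinase Trib3 fell by 2.77 ± 0.27. Of 81 ribosomal protein genes 42 fell and 0 rose, with a small median of -0.38.

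Markers of cells that the tissue could have carried along were called, in either direction, at or below the share of all genes (42.7%), or within 1 gene of it. Most of these calls were lower, however. Of the mural and of the meningeal markers 44.4% were lower and 0 higher, against 19.6% lower among all genes. Single genes made up much of the sums. The summed level of 12 endothelial markers was 144 to 198 CPM in Epi RG and 38.5 to 55.8 in Epi IP, of which the glucose transporter Slc2a1 made up 89.1% in Epi RG. Slc2a1 fell and Esam rose (0.94 ± 0.30), the latter not called without the second Epi IP library, while Pecam1, Cdh5, Cldn5 and the other vessel markers were not called. Meningeal markers summed to 331 to 364 CPM and 58.2 to 98.3 CPM, with 95.8% from fibronectin (Fn1) in Epi RG, and 4 of 9 fell: Fn1, Dcn (-1.32), Col1a1 (-0.87) and Col1a2 (-1.11). The call of Col1a2 was lost without the third Epi IP or the second Epi RG library, and that of Col1a1 without any single one of the 6 treated libraries or without the second Ctl RG library. Mural markers summed to 133 to 154 CPM and 29.1 to 39.2 CPM, with Notch3, Pdgfrb, Cspg4 and Ndufa4l2 lower of 9. Oligodendrocyte precursor markers summed to 94.1 to 139.8 CPM and 15.1 to 20.2 CPM, with 87.4% from Bcan in Epi RG; Bcan, Cspg4 and Olig2 fell and Lhfpl3 rose (2.22 ± 0.44). Macrophage markers summed to 6.99 to 9.34 CPM and 5.70 to 7.17 CPM with 0 of 11 called. Erythroid markers summed to 26.9 to 66.1 CPM and 46.9 to 101 CPM with 0 of 9 called, and 4 higher with the replicate block. Choroid plexus markers summed to 7.96 to 18.5 CPM and 4.17 to 5.76 CPM with 1 of 8 lower, Otx2 (-2.17 ± 0.43), and 3 with the block. None of these marker lists held a gene with 0 counts over the 6 libraries. The part of these cells in the results was not tested.

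The genes with the smallest unadjusted p for the difference of the steps are given as values only, since none passed. The kinase gene Stk32b was at 0.687, 0.589 and 0.707 CPM in Epi RG and 66.9, 69.0 and 76.6 CPM in Epi IP, and at 1.15, 1.23 and 1.23 CPM in Ctl RG and 56.1, 62.5 and 80.8 CPM in Ctl IP. The IP libraries of the 2 treatments overlapped, whereas the Epi RG libraries were all lower than the Ctl RG libraries. Its difference was 0.93 (95% interval 0.36 to 1.5), with an unadjusted edgeR p of 0.00265. The presynaptic scaffold gene Rims1 had a difference of 0.59 (95% interval 0.16 to 1.01), Sez6l2 of 0.51 (95% interval 0.14 to 0.88) and the vesicle regulator Stxbp5l of 0.84 (95% interval 0.18 to 1.5). Positive differences were also seen in Hs3st5 (0.90), Dnm3os (0.67) and Zfp882 (0.73), and negative ones in Dnajc28 (-0.73), the death-domain adaptor Tradd (-0.78) and Pcbd2 (-0.90). For Eomes the difference was -0.08 (95% interval -0.85 to 0.70), for Mki67 -0.26 (95% interval -0.93 to 0.41) and for Neurod6 0.07 (95% interval -0.58 to 0.72). An interval that spans 0 does not show that the steps are alike, and for these genes it leaves room for differences up to its bounds.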

How the data were processed

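Per the labels' protocols, a kit meant for fixed, embedded tissue gave the RNA and SmartSeq2 the libraries; SmartSeq2 marks no strand and carries no molecular identifiers, so overlapping and antisense genes cannot be told apart. The submitters' processing notes name bcl2fastq 2.20.0, cutadapt 2.6, featureCounts 2.0.1 and GRCm39, and no source used here names an aligner. The authors deposited raw counts for 55416 genes and 92 spike-in rows in 18 libraries. In the table's header, strand and gene type stood over each other's columns, which was set right. From the deposited counts, edgeR 4.0.16 (R 4.3.3) fitted 6 group means over all 18 libraries after filterByExpr and TMM scaling, with no replicate block, and quasi-likelihood tests were adjusted by Benjamini-Hochberg over 29355 genes. From the same deposited counts came TMM-scaled CPM and log2 CPM (prior count 2). SE is the absolute log2 fold change over the root of F. The step difference is Epi IP minus Epi RG less Ctl IP minus Ctl RG.

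Library totals and replicate spread set the precision, and adjusted p-values cover these cultures only. Replicate numbers come from the column names; over 11711 genes, deviations from group means correlated at 0.243 to 0.54 between same-numbered Epi RG and Epi IP libraries and at 0.264 to 0.597 in control, so the numbers were taken to pair the libraries, and the block fits are alternatives. Other alternatives were RLE and upper-quartile scaling, no filter, a mean log2 CPM of at least 3, a robust fit, fewer groups in the fit, DESeq2 1.42.0, limma 3.58.1 voom, thinning, and leaving out each of 12 libraries. The tests were tested on simulated data. Named genes were the 12 largest changes in each direction without overlap (mean log2 CPM at least 1, ordinary symbol), the 10 smallest p of the step difference, up to 4 called members per list plus members against their list's direction, and a panel; a few further members are named to complete a count, and some genes these rules name are not reported here. The members and the 65 gene lists were chosen with earlier results of these data known. Promoters are from RefSeq (GRCm38.p6). Figures were drawn with matplotlib 3.10.9.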

Additional observations from a re-analysis of the deposited data

How the results depend on the processing

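The count of genes called between Epi IP and Epi RG stayed within 1.5 times of 12540 under every alternative but the stricter filter, which tested 11709 genes and called 8158. It was 14261 with a replicate block over all libraries, 14272 with a block within treatment and 14683 with a block on the 6 treated libraries. Leaving out single libraries gave 11098 to 12766 calls, and 10836 to 12078 in control cultures. The step difference called 0 genes in all settings run, 0 to 0 with libraries left out. Its genes with an unadjusted p under 0.05 numbered 442 as reported, 435 to 881 with libraries left out, 717 in limma, 53 with the stricter filter, and 1264 without a filter, where 53128 genes were tested. The correlation of the steps over all genes (0.924) was 0.542 without a filter, where rarely counted genes enter, and 0.995 with the stricter filter, and 0.879 to 0.905 with libraries left out. Upper-quartile scaling moved the median of all genes from -0.07 to -0.18 and the higher share of calls from 54.2% to 48.0%, and the median of the nuclear oxidative phosphorylation list from 0.05 to -0.05. The endothelial median was 0.03 without the second Epi IP library. Of 11574 values for 466 genes, 11310 kept their side of the threshold, 217 lost and 47 gained the call, and no called value turned direction. The block over all libraries gave 6 of the 466 genes a call (among them Actl6a and Ankle2 as given above, Emx1 at 0.34, Pfkfb3 at -0.29 and mt-Nd6 at 0.47), and took 0 away. It changed a count of called members in 33 of 65 lists, and by over 1.5 times in 5: the oxidative phosphorylation, erythroid and choroid plexus lists as given above, and the lysophospholipid and ribosomal lists, each from 0 to 1 higher. It changed no other call of a named gene. Scaling on spike-ins could not be run, since those rows held 0 to 7 reads a library.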

Other observations

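FGF genes moved in both directions. Of 22 FGF genes 11 rose and 6 fell in Epi IP against Epi RG, where 23.2% of all genes were higher and 19.6% lower. Fgf2, Fgf11 and Fgf15 were among those that fell, and each lost its call in some fits without 1 of the treated libraries. The receptor Fgfr3 went from 199.9, 200.5 and 278 CPM to 32.9, 25.7 and 28.3 CPM, and Fgfr1 and Fgfr2 fell too. Fgfr4 was called higher. The membrane proteins Flrt1 (2.17) and Flrt2 (3.12), which bind FGF receptors, rose on the log2 scale. Of 29 BMP and TGF-beta genes 13 fell and 5 rose; Tgfb2, a secreted ligand, went from 87.2, 86.6 and 116 CPM to 8.65, 9.57 and 14.2 CPM. Of 9 lysophospholipid receptors 6 fell and 0 rose, with Lpar1 at 53.4, 49.4 and 45.9 CPM in Epi RG and 2.64, 2.48 and 2.31 CPM in Epi IP. None of these 3 genes overlapped between the groups.

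Of 9 chemokine and receptor genes 4 rose (23.2% of all genes did) and 1, Cxcl10, was called lower, though not without Epi IP library 2 or 3 or Epi RG library 2. Cxcl12, which guides migrating interneurons and progenitors, went from 0.797, 0.471 and 0.867 CPM to 7.13, 7.49 and 8.37 CPM, and its scavenging receptor Ackr3 rose by 2.84 ± 0.26. Of 23 growth and stage genes 5 rose and 7 fell, where 23.2% of all genes were higher and 19.6% lower. The imprinted RNA Meg3 rose by 4.52 ± 0.24, and the progenitor chromatin factor Hmga2 fell from 66.5, 58.1 and 53.9 CPM to 2.43, 2.35 and 2.71 CPM. Rises in this list, and in the p53 and heat shock lists that follow, were close to the share of all genes. Of 25 p53 targets 13 fell, among them Gtse1, a mitotic gene (-3.38 ± 0.21), and Cdkn1a (-1.5 ± 0.13), and 6 rose. Of 19 heat shock genes 11 fell and 4 rose, with the chaperone Hspa5 of the endoplasmic reticulum lower (-1.19 ± 0.13) and Hspa8 of the cytosol higher (0.51 ± 0.12). Of 30 interferon and MHC class I genes 9 rose and 10 fell in treated cultures, against 5 and 10 in control cultures. The class I heavy chain H2-K1 fell by 2.2 ± 0.20 and the interferon signal transducer Stat2 rose by 1.73 ± 0.15.

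Of the 11711 genes with a mean log2 CPM above 3, 6 had steps that differed by 1 log2 unit or more between treated and control cultures, named here after their values were seen and with no call. Vxn, a neurogenesis factor, had a step of 6.11 ± 0.26 in treated and 5.04 ± 0.24 in control cultures, a difference of 1.07 (95% interval 0.24 to 1.90). The metalloproteinase gene Mmp24 differed by 1.00 (95% interval 0.09 to 1.92) and the neuronal bHLH gene Nhlh2 by 1.11 (95% interval 0.14 to 2.07). The transcript Gm44831 differed by 1.42 (95% interval 0.28 to 2.56), Smim18 by -1.01 (95% interval -2.10 to 0.08) and the mitochondrial tRNA gene mt-Tq by -1.37 (95% interval -2.73 to -0.01). Nhlh2 was at 0.522, 0.393 and 0.193 CPM in Epi RG and 39.4, 53.9 and 77.2 CPM in Epi IP, and at 0.779, 0.838 and 0.705 CPM in Ctl RG and 41.1, 53 and 66.4 CPM in Ctl IP.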
